A study of Mus musculus with 7 samples.

Results

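Potassium channel genes were taken as the genes whose symbols start with Kcn, with the antisense RNA Kcnq1ot1 left out, which gave 98 of the 32285 genes in the annotation. Of these, 67 had at least 1 unique molecular identifier (UMI, a tag that counts 1 captured RNA molecule) in at least 5% of the nuclei of one of 10 classes of nuclei and were compared between classes. The annotation lists 4 of the 98 as antisense genes named after a channel gene, of which 2 are among the 67, and the other 94 as protein-coding. The nuclei came from the posterolateral cortical amygdala, an olfactory region of the ventral forebrain, and were isolated separately from its anterior (aplCoA) and posterior (pplCoA) domains. The mice were male C57BL6J, 8 weeks old, and each replicate pooled tissue of several mice, so that the spread between replicates is a spread between pools. Each domain had 3 replicates, and aplCoA replicate 1 was sequenced as 2 libraries, summed here, which made 7 libraries in all. An SD with n = 6 is taken over the pools of both domains and so also holds any difference between the domains.

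Potassium channels let potassium ions cross the membrane and so set a cell's resting potential, the shape of its action potentials and its firing pattern. The voltage-gated pore subunits (Kcna to Kcnd, Kcnh and Kcnq) open on depolarization, the silent subunits (Kcnf, Kcng, Kcns and Kcnv) modify them, and Kcnab and Kcnip genes encode cytoplasmic partners. Inward rectifiers (Kcnj) and tandem-pore leak channels (Kcnk) act near rest and in glia, and the calcium- or sodium-activated channels (Kcnma, Kcnmb, Kcnn and Kcnt) shape the potential after a spike.

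Of 52201 barcodes with at least 1000 genes, 46412 nuclei passed all filters, 27361 from aplCoA and 19051 from pplCoA. Library totals ran from 50812605 to 129624583 UMIs, and any pair of libraries shared between 5 and 37 barcodes, at most 0.455% of the smaller library. Clusters were made without the potassium channel genes and named by marker genes, which gave 19970 glutamatergic, 5089 GABAergic, 9772 astrocyte-like, 3639 oligodendrocyte precursor-like (OPC), 311 newly formed oligodendrocyte-like (NFOL), 1532 mature oligodendrocyte-like (MOL), 2799 microglia-like and 1052 arachnoid barrier-like (ABC) nuclei. A further 1858 nuclei in 2 clusters shared the transporter gene Slc6a13 among their leading genes. They scored highest for vascular leptomeningeal markers but also had a barrier cell marker among their leading genes, so they were left unnamed and are called Slc6a13-led. The 263 macrophage-like, 44 mural-like and 83 other nuclei were too few to compare. The median nucleus held 12238 UMIs in the glutamatergic class, 7906 in the GABAergic class and between 2955.5 and 5181 in the other 7 compared classes, and levels are therefore given as CPM, the counts per 1000000 of the summed UMIs of a class in a replicate. Free RNA in the droplets adds UMIs to every class and was not subtracted.

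The 5% rule depends on depth as well as on level. Kcnh6 and Kcnu1 were the members closest above it, each at 5.44% of nuclei in their best class, and Kcnab3 (4.97%) and Kcnh2 (4.17%) were closest below. All 5 Kcne genes, which encode small accessory subunits, fell below it. The rule was applied to the 9 compared classes and the macrophage-like nuclei. The 31 members that were not kept included Kcnj1, with no UMI in any nucleus that passed the filters, and Kcnj8, a pore subunit of the ATP-sensitive channel of vascular cells. Kcnj8 reached at most 0.197% of nuclei in these classes, in GABAergic nuclei, but had a UMI in 19 of the 44 mural-like nuclei pooled over replicates (43.2%, exact 95% binomial interval 28.3 to 59.0%, for counting error only), whose median was 2291 UMIs. It was 1 of 2 members not kept that passed 5% of the mural-like nuclei.

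The classes are clusters of these same nuclei, so their levels are a description and no test was made. The summed level of all members was 19196 ± 1041 CPM (SD, n = 6) in glutamatergic nuclei, 13995 ± 603 CPM in GABAergic nuclei and 10567 ± 545 CPM in OPC. It was 5570 ± 515 CPM in ABC, 5038 ± 250 CPM in astrocytes and lowest in microglia, at 1819 ± 207 CPM. Intronic reads were counted, so long genes weigh most in these sums. Of the 67 members, 26 (38.8%) were highest in glutamatergic nuclei, where 9.83% of the 14378 genes kept by the same rule were highest. OPC took 10 members (14.9%, against 5.65% of all kept genes) and GABAergic nuclei 9 (13.4%, against 10.1%). For 43 members the 6 replicates of the highest class did not overlap those of the next class, as was the case for 36.6% of all kept genes. In 37 members the highest class was at least 2-fold above the next, against 26.4% of all kept genes.

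**Figure D1:**
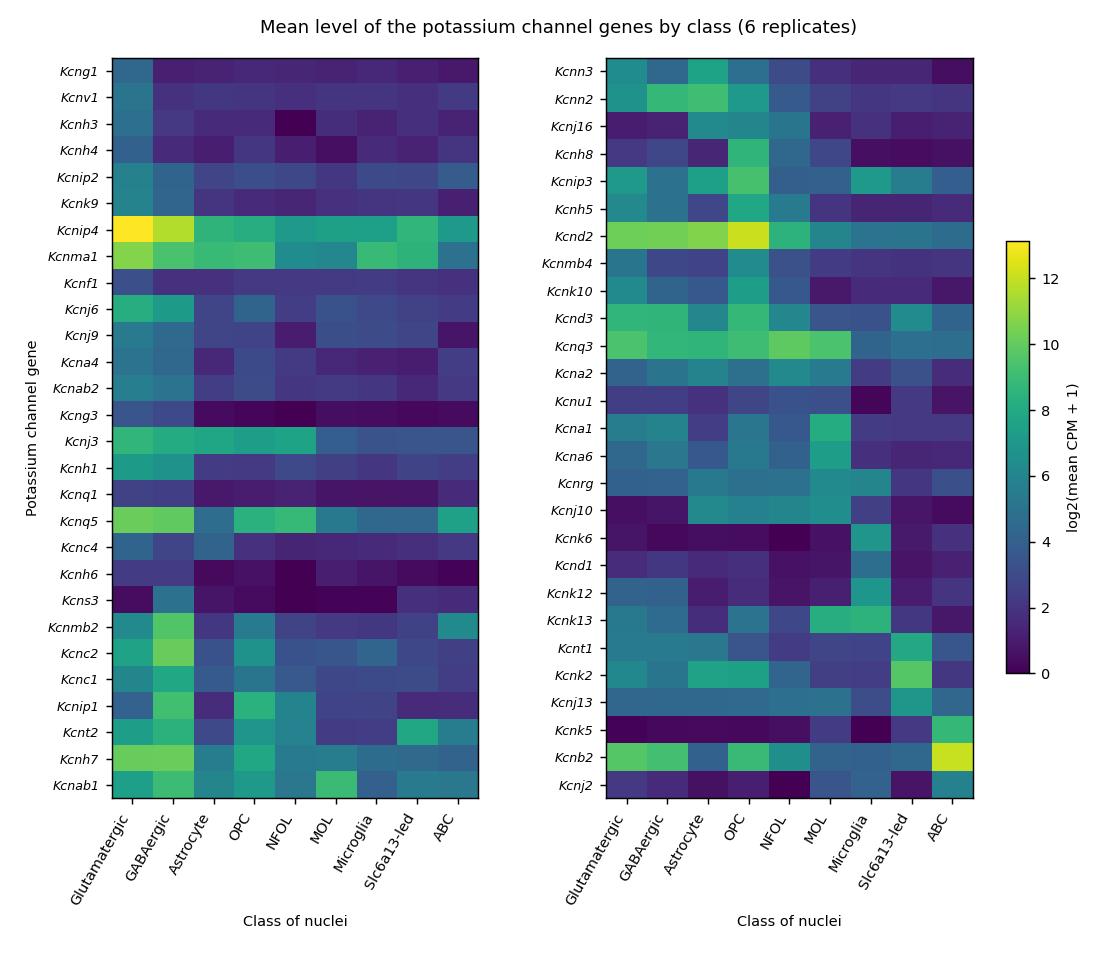
Mean level of 55 of the 67 kept potassium channel genes, those named in the text (rows, in 2 panels), in 9 classes of nuclei (columns), as log2 of the mean CPM of 6 replicates plus 1, with genes ordered by their highest class. The 20 genes at the top of the left panel are highest in glutamatergic nuclei, and single bright cells stand for genes such as Kcnk5 in ABC and Kcnh8 in OPC.

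Among the voltage-gated subunits, Kcnc1 and Kcnc2, whose channels close quickly and permit fast firing, stood highest in GABAergic nuclei. Kcnc2 had 900 CPM in its lowest, 1043 CPM in its median and 1273 CPM in its highest GABAergic replicate, and its mean was 5.73 times that of glutamatergic nuclei (188 ± 28.9 CPM, SD, n = 6). Kcnc1 was at 228 ± 16.5 CPM in GABAergic and 63.5 ± 5.54 CPM in glutamatergic nuclei. Neither gene overlapped between these classes. Kcnc4 was nearly level between glutamatergic nuclei (17.8 ± 4.04 CPM) and astrocytes (17.1 ± 2.73 CPM).

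The Kcna genes encode the low-threshold channels of axons, and those kept were highest in different classes. Kcna1 ranged from 231 to 330 CPM over the MOL replicates with a median of 273 CPM, against 58.9 ± 9.17 CPM (SD, n = 6) in GABAergic nuclei, the next class, a ratio of 4.74. Kcna6 was also highest in MOL, with 167 ± 13.8 CPM there and 38.8 ± 5.83 CPM in OPC, and neither gene overlapped its next class. Kcna2 was highest in NFOL (73.0 ± 9.40 CPM) and overlapped astrocytes (58.9 ± 6.80 CPM), and Kcna4 was highest in glutamatergic nuclei (31.1 ± 4.73 CPM). Of the Kcnb genes, which encode the delayed rectifier of cell bodies, Kcnb2 reached 4199 ± 568 CPM in ABC, 5.06 times the 830 ± 80.5 CPM of glutamatergic nuclei, with no overlap.

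The A-type subunit Kcnd2, whose channel delays firing, was highest in OPC at 4316 ± 304 CPM (SD, n = 6), 2.63 times the 1641 ± 244 CPM of astrocytes. Kcnd3 did not separate OPC (431 ± 53.7 CPM) from glutamatergic nuclei (402 ± 28.3 CPM). Kcnd1 was highest in microglia, at 26.1 ± 4.12 CPM against 3.46 ± 0.464 CPM in GABAergic nuclei. The Kcnip genes encode calcium-binding partners of the Kcnd channels, and 3 different classes held the highest level of the 4 genes. Kcnip4 was at 9100 ± 636 CPM in glutamatergic nuclei and 3177 ± 390 CPM in GABAergic nuclei. Kcnip1 was at 576 ± 16.6 CPM in GABAergic nuclei, 338 ± 28.6 CPM in OPC and 16.6 ± 14.6 CPM in glutamatergic nuclei. Kcnip3 was at 629 ± 64.7 CPM in OPC and 172 ± 41.1 CPM in astrocytes, and Kcnip2 was at 54.3 ± 2.62 CPM in glutamatergic nuclei, 3.09 times the GABAergic level. The replicates of these pairs of classes did not overlap for any Kcnip gene.

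The ether-a-go-go family (Kcnh) was split between precursors and neurons. Kcnh8 was at 382 ± 28.9 CPM (SD, n = 6) in OPC, between 350 and 424 CPM, and 18.6 times the level of NFOL (20.5 ± 14.1 CPM). Kcnh5 was also highest in OPC, at 235 ± 33.0 CPM against 70.8 ± 28.8 CPM in glutamatergic nuclei. Kcnh7 did not differ beyond its spread between GABAergic (1118 ± 82.8 CPM) and glutamatergic nuclei (1085 ± 84.1 CPM). Kcnh3 and Kcnh4 were highest in glutamatergic nuclei, 7.55 and 5.10 times the next class. Of the Kcnq genes, whose M-current damps repetitive firing, Kcnq5 overlapped between glutamatergic (1125 ± 270 CPM) and GABAergic nuclei (998 ± 64.3 CPM). Kcnq3 was highest in NFOL (932 ± 89.9 CPM), above MOL (697 ± 113 CPM) without overlap.

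Most of the silent subunits kept were highest in glutamatergic nuclei, at low levels. Kcng1 was at 20.6 ± 2.89 CPM (SD, n = 6) in glutamatergic nuclei, 11.3 times the next class, and Kcnv1 at 32.5 ± 3.02 CPM, 8.73 times the next class. Kcns3 was at 29.6 ± 6.92 CPM in GABAergic nuclei against 2.36 ± 1.42 CPM in Slc6a13-led nuclei, a ratio of 12.6. Kcnf1 was at 8.20 ± 1.47 CPM in glutamatergic nuclei, 2.12 times microglia. None of these 4 genes overlapped between its highest and its next class. Kcng3 was at 9.90 ± 2.56 CPM in glutamatergic and 6.53 ± 1.73 CPM in GABAergic nuclei, with overlap, and 1 further silent subunit overlapped between the same classes. Of the beta subunits of the Kcna channels, Kcnab2 was at 48.3 ± 4.71 CPM in glutamatergic and 30.9 ± 3.17 CPM in GABAergic nuclei, without overlap, and Kcnab1 did not separate GABAergic nuclei (514 ± 32.7 CPM) from MOL (499 ± 101 CPM).

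The Kcnk genes, whose channels carry leak current, included the largest ratio between classes. Kcnk5 was at 351 CPM in its lowest, 427 CPM in its median and 542 CPM in its highest ABC replicate, where the next class, MOL, had 3.80 ± 2.63 CPM (SD, n = 6), a ratio of 116. Kcnk6 was at 115 ± 21.8 CPM in microglia, 42.6 times the level of ABC (2.69 ± 2.20 CPM). Kcnk12 was at 120 ± 12.6 CPM in microglia and 17.1 ± 1.20 CPM in glutamatergic nuclei, again with no overlap. Kcnk13, known as the resting potassium channel of microglia, was at 366 ± 26.9 CPM there, and its replicates overlapped those of MOL (290 ± 40.2 CPM). In the 263 macrophage-like nuclei, pooled over replicates and left out of this order, Kcnk6 was at 49.1 CPM (95% counting interval 34.8 to 67.4). Kcnk13 was at 266 CPM (231 to 305) in these nuclei and Kcnk12 at 1.29 CPM (0.0327 to 7.20). Kcnk2, a channel opened by stretch and lipids, was at 834 ± 92.9 CPM in Slc6a13-led nuclei, 4.35 times the 192 ± 9.25 CPM of astrocytes.

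Of the inward rectifiers, Kcnj10, the main potassium-buffering channel of glia, was at 87.7 ± 22.9 CPM (SD, n = 6) in MOL and 73.1 ± 6.06 CPM in astrocytes, which overlapped. Its partner Kcnj16 was at 76.6 ± 10.1 CPM in astrocytes and 64.5 ± 11.4 CPM in OPC, also with overlap. In MOL, where Kcnj10 was highest, Kcnj16 was at 1.34 ± 2.04 CPM. Kcnj2 was at 54.6 ± 18.3 CPM in ABC and 16.7 ± 1.93 CPM in microglia. Kcnj13 was at 124 ± 18.2 CPM in Slc6a13-led nuclei, 4.28 times MOL. Kcnj13 lies on the opposite strand within Gigyf2, so its reads rest on strand-aware counting. The G-protein-gated rectifiers Kcnj3, Kcnj6 and Kcnj9 were all highest in glutamatergic nuclei, at 398 ± 37.8 CPM, 288 ± 42.2 CPM and 40.4 ± 5.86 CPM, with GABAergic nuclei next and no overlap.

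The calcium-activated genes divided by neuron type and glia. Kcnma1, the large-conductance pore, was at 1658 ± 204 CPM (SD, n = 6) in glutamatergic and 652 ± 24.7 CPM in GABAergic nuclei. Its beta subunit Kcnmb2, which inactivates the channel, was at 754 ± 91.9 CPM in GABAergic nuclei, 9.73 times the 77.5 ± 10.3 CPM of glutamatergic nuclei. The replicates of the neuron types did not overlap for either gene, and the order of the types was opposite. Another beta subunit, Kcnmb4, was highest in OPC (80.3 ± 6.57 CPM), with 33.1 ± 4.74 CPM in glutamatergic nuclei. The small-conductance channel Kcnn3 was at 195 ± 12.0 CPM in astrocytes, 2.38 times glutamatergic nuclei, and Kcnn2 did not separate astrocytes (561 ± 75.9 CPM) from GABAergic nuclei (429 ± 34.1 CPM). Of the sodium-activated channels, Kcnt1 was highest in Slc6a13-led nuclei (246 ± 37.9 CPM, 5.73 times GABAergic nuclei), and Kcnt2 was at 351 ± 70.3 CPM in GABAergic nuclei and overlapped the Slc6a13-led class. Kcnrg, a regulator of channel assembly that is no channel itself, was at 77.9 ± 19.9 CPM in MOL and 61.8 ± 15.3 CPM in microglia with overlap. Kcnu1 overlapped between NFOL and MOL, near the lowest levels kept.

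Levels of different genes were compared only per kilobase of gene span, because intronic reads scale with length. On this scale Kcnip4 (8.01 CPM per kb), Kcna1 (7.39 CPM per kb) and Kcnj9 (4.59 CPM per kb) led in glutamatergic nuclei. In GABAergic nuclei Kcna1 (9.84 CPM per kb), Kcnc2 (5.49 CPM per kb) and Kcnc1 (5.39 CPM per kb) led. Kcnip3 (9.59 CPM per kb) and Kcnd2 (8.39 CPM per kb) led in OPC, and Kcnk5 (10.5 CPM per kb) and Kcnb2 (9.62 CPM per kb) in ABC. In microglia the leading genes were Kcnrg (11.5 CPM per kb) and Kcnk6 (10.8 CPM per kb). Short genes with few introns, such as Kcna1, move up in this order.

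The next question was whether these genes differed between the anterior and posterior domains within glutamatergic neurons. Of 49 members tested, 4 were higher and 12 lower in aplCoA (edgeR quasi-likelihood test, adjusted p under 0.05 over all genes). The higher genes were Kcnip1, Kcnh5, Kcnh1 and Kcna2, and the lower ones came from 8 subfamilies, among them the leak channel Kcnk13, the silent subunit Kcng3 and the large-conductance pore Kcnma1. These 16 members make 32.7% of those tested, beside 21.0% of the 9697 genes tested (10.2% higher and 10.8% lower). A gene was tested when a UMI was seen in at least 10% of nuclei of either domain, and Kcnip1 (16.7% of nuclei in aplCoA and 5.43% in pplCoA) and Kcng3 (8.38% and 12.8%) passed this filter through the domain where they were higher, so their values are a description. Among the genes past 10% in both domains 14 of 46 members (30.4%) were called, beside 18.9% of all 9012 genes. The median log2 fold change of the members was -0.12, against 0.00 over all genes. The domains were separate, with every replicate of one beyond those of the other, for 21 members (42.9%), beside 43.3% of all genes. With an adjusted p under 0.01 and a change of at least 1.5-fold, 3 members (6.12%) were called beside 5.14% of all genes.

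Kcnip1 had 42.7, 17.7 and 21.4 CPM in aplCoA replicates 1 to 3 and 10.8, 3.43 and 3.92 CPM in pplCoA. The replicates did not overlap, and the fitted log2 fold change of Kcnip1 was 2.05 ± 0.456 (SE), given as a description. Kcnh5 had 86.9, 113 and 84.2 CPM in aplCoA and 57.1, 48.4 and 35.5 CPM in pplCoA. Every aplCoA replicate of Kcnh5 lay above every pplCoA replicate, with a log2 fold change of 0.93 ± 0.175 (edgeR adjusted p = 0.00962). Its relative Kcnh1 was higher by 0.64 ± 0.145 (edgeR adjusted p = 0.0172), at 176 ± 9.57 CPM in aplCoA and 107 ± 25.8 CPM in pplCoA (SD, n = 3). Kcna2 was higher by 0.36 ± 0.105 (edgeR adjusted p = 0.0439). Kcnk2 had 82.9 ± 3.91 CPM in aplCoA and 54.1 ± 15.3 CPM in pplCoA and missed the threshold of the quasi-likelihood test (edgeR adjusted p = 0.0536), but passed by DESeq2 and the likelihood ratio test of edgeR.

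Of the lower genes, Kcnk13, the leak channel that was highest in microglia, had 30.6, 20.0 and 32.8 CPM in aplCoA and 41.0, 53.3 and 54.4 CPM in pplCoA, a log2 fold change of -0.91 ± 0.181 (SE, edgeR adjusted p = 0.0110). Kcng3, a silent subunit, had 8.47, 7.47 and 7.35 CPM against 10.30, 12.85 and 12.98 CPM. Its fitted log2 fold change was -0.71 ± 0.127, given as a description because Kcng3 passed the filter through pplCoA. Kcnc4 had 15.2, 13.4 and 14.3 CPM against 19.7, 22.4 and 22.1 CPM, a log2 fold change of -0.66 ± 0.0899 (edgeR adjusted p = 0.00533). In each of these 3 genes every aplCoA replicate was below every pplCoA replicate. Kcnma1 was at 1483 ± 86.8 CPM in aplCoA and 1833 ± 66.4 CPM in pplCoA (SD, n = 3, log2 fold change -0.39 ± 0.0765, edgeR adjusted p = 0.0109). Its subunit Kcnmb4 was lower as well, with a log2 fold change of -0.39 ± 0.103 (edgeR adjusted p = 0.0302).

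The G-protein-gated rectifiers Kcnj6 (log2 fold change -0.42 ± 0.0855) and Kcnj9 (-0.40 ± 0.0951) were both lower in aplCoA by edgeR, as were Kcnn3 (-0.55 ± 0.124), the leak channel Kcnk10 (-0.30 ± 0.0681) and Kcnj13 (-0.59 ± 0.141). Kcng1 (-0.36 ± 0.101) and Kcna4 (-0.39 ± 0.110) passed the test although their replicates overlapped between domains. The calls of Kcnc4, Kcnh5 and Kcnk13 held in all 6 fits that each left out 1 replicate. Kcng3 was called in all 6 as well, but it passed the filter through pplCoA, so this is a description. The other 12 calls did not hold in all 6. Leaving out pplCoA replicate 2 gave 4 calls, and leaving out pplCoA replicate 1 gave 22. Without aplCoA replicate 1, aplCoA replicate 2, aplCoA replicate 3 or pplCoA replicate 3 the counts were 8, 9, 11 and 8, and Kcnip1 was not called without aplCoA replicate 1, pplCoA replicate 2 or pplCoA replicate 3. These counts have no share of all genes beside them, so whether all genes moved alike cannot be told.

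**Figure D2:**
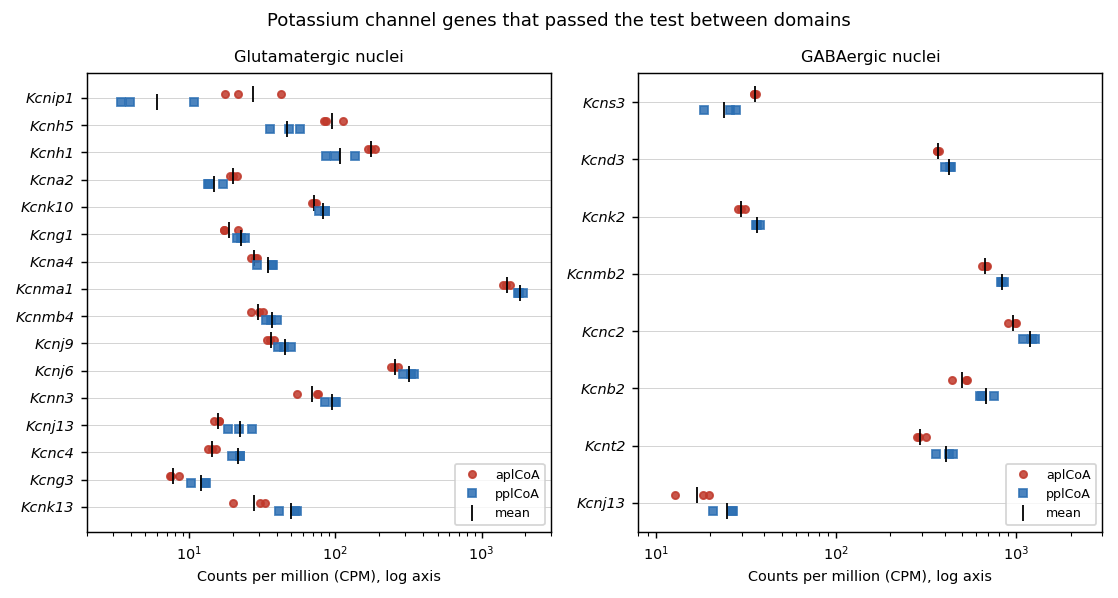
Level in CPM (log axis) of each replicate for the 16 members called between domains in glutamatergic nuclei (left) and 8 of the 9 called in GABAergic nuclei (right), with aplCoA as red circles, pplCoA as blue squares and black ticks for the mean of 3 replicates. The circles and squares of a gene are separate except for Kcng1 and Kcna4, whose domains overlap. Kcnip1 and Kcng3 passed the filter in glutamatergic nuclei through the domain where they were higher, so their points are a description.

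The start regions of the 2 members with the largest fitted change between domains in each direction in glutamatergic nuclei are shown, so that the sequences in front of the most changed genes can be compared. RefSeq windows of 300 bases around a transcript start (GRCm38.p6) were held for 71 of the 98 members and 48 of the 67 kept members. Capitals mark TGACAG, letters bound by MEIS factors, found on either strand and so also written as their reverse complement. CCCNNGGGA for EBF factors and TATAAA for a TATA box were searched on both strands as well, because Meis1, Ebf1 and Ebf2 led glutamatergic clusters. The Kcnip1 window lies at chr11:33993144-33993443 and is the first of its 3 windows, that of Kcnh5 lies at chr12:75177283-75177582 and that of Kcng3 at chr17:83631846-83632145, all on the minus strand, and that of Kcnk13 lies at chr12:99964249-99964548 on the plus strand.
Kcnip1: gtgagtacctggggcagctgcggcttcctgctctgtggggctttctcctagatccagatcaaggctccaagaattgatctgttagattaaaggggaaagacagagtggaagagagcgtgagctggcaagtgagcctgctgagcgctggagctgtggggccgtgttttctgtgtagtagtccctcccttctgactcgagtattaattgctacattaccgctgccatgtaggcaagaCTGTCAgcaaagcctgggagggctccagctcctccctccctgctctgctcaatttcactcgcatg
Kcnh5: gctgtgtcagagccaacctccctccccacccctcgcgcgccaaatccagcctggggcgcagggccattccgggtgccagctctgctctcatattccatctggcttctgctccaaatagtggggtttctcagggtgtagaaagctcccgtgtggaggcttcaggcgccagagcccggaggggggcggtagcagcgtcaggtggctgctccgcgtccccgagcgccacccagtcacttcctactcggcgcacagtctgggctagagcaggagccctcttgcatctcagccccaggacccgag
Kcnk13: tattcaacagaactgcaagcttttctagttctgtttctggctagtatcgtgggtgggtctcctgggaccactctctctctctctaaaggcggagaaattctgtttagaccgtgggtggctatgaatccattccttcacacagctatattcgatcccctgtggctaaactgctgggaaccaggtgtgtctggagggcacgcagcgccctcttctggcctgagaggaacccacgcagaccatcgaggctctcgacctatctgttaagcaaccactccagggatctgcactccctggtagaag
Kcng3: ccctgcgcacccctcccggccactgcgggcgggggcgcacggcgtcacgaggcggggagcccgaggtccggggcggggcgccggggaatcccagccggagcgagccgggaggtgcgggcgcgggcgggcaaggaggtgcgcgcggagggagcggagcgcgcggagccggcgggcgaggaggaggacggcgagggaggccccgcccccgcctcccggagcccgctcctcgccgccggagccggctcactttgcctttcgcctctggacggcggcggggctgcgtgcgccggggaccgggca
The MEIS letters occurred once, in the Kcnip1 window, and the other 3 windows held none of the searched letters. TGACAG was present in 19.2% of the 32817 RefSeq windows of this length and in a window of 11 of the 48 kept members (22.9%, against 21.6% of all 27025 genes). CCCNNGGGA was present for 6 kept members, 1 of them an antisense gene (12.5%, against 7.48% of all genes), and TATAAA for 4 (8.33%, against 15.7%). The median GC content was 62.3% over the first windows of the kept members and 52.7% over all windows. The part of base composition in these shares was not tested. A match is a match of letters and not a bound site. GC content was 54.3% in the Kcnip1 window, 65.3% for Kcnh5, 52.7% for Kcnk13 and 82.0% for Kcng3.

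The domains also differed in their mix of glutamatergic nuclei, and several values moved with the calls. Nuclei with a UMI of Slc17a6, a vesicular glutamate transporter gene, and none of the other transporter gene Slc17a7 made up 21.9%, 15.5% and 17.0% of glutamatergic nuclei in aplCoA and 5.89%, 1.64% and 1.16% in pplCoA. Within glutamatergic nuclei Kcnip1 was at 364 ± 23.3 CPM (SD over 4 replicates) in the 137 nuclei of the cluster led by Ndnf and at 203 ± 65.3 CPM in the 681 nuclei led by Ebf2. It was at 45.4 to 56.8 CPM in the clusters led by Vwa5b1, Meis1, Ebf1 and Gm31698, and at 1.33 to 3.12 CPM in the 8 other clusters with at least 100 nuclei. In the nuclei with Slc17a7 and no Slc17a6, 8 of 49 members (16.3%) were called between domains by edgeR, beside 9.20% of all 9780 genes. Among the genes past 10% of nuclei in both domains it was 8 of 47 (17.0%), beside 7.98%. Among these were Kcnh5 (log2 fold change 0.98 ± 0.181), Kcnk13 (-1.02 ± 0.259), Kcnc4 (-0.49 ± 0.0887), Kcnn3 (-0.76 ± 0.165), Kcnh1 (0.63 ± 0.145), Kcng1 (-0.48 ± 0.110) and Kcnj13 (-0.58 ± 0.135). A cluster of 1970 nuclei, 55.4% of them from 1 replicate, moved with these calls, at 19.0 ± 13.3% of glutamatergic nuclei in aplCoA (SD, n = 3) and 1.10 ± 0.331% in pplCoA. Of the 14 clusters with at least 100 nuclei, it had the highest level of Kcnh5 (137 ± 20.2 CPM) and the lowest of Kcng1 (5.34 ± 3.09 CPM). Kcnh1 was at 243 ± 28.3 CPM there, with 1 cluster higher, Kcnn3 at 28.0 ± 3.77 CPM, with 1 lower, and Kcnk13 at 15.4 ± 11.8 CPM, with 2 lower. A cluster of 1492 nuclei shifted the other way, at 0.711 ± 0.905% in aplCoA and 18.8 ± 12.0% in pplCoA (SD, n = 3). It had the lowest Kcnh5 (16.7 ± 10.9 CPM) and the highest Kcnk13 (63.8 ± 9.29 CPM) of the 14 clusters. Kcnn3 was at 122 ± 3.20 CPM there, Kcnc4 at 22.2 ± 5.65 CPM and Kcnh1 at 48.0 ± 12.3 CPM. Kcng1 was at 18.4 ± 7.13 CPM and Kcnj13 at 20.8 ± 5.77 CPM. The part of this cluster in the calls was not tested. The other 8 genes called in the whole class and tested in the nuclei with Slc17a7 and no Slc17a6 missed the threshold. These were Kcng3 (-0.34 ± 0.120, edgeR adjusted p = 0.111), Kcnma1 (-0.21 ± 0.0715), Kcnmb4 (-0.14 ± 0.0829), Kcnj6 (-0.30 ± 0.0799), Kcnj9 (-0.29 ± 0.0917), Kcnk10 (-0.15 ± 0.0674), Kcna4 (-0.24 ± 0.0994) and Kcna2 (0.26 ± 0.120). Kcnip1 was below the filter there, with 16.8, 4.86 and 5.36 CPM in aplCoA and 3.92, 3.03 and 2.61 CPM in pplCoA.

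The domains were compared again in the 5 glutamatergic clusters with at least 20 nuclei in every replicate, a comparison added after the data were seen, and by edgeR 0 members passed in 4 of them. These were the clusters led by Smoc2 (1.01% of all genes called), Fstl5 (0.552%) and Matn2 (0.0298%) and 1 further cluster (0%). Members with an unadjusted p under 0.05 were 20 of 48 for Smoc2, beside 1748 of all 9622 genes. They were 11 of 49 for Fstl5 (1150 of 9607), 4 of 49 for Matn2 (725 of 10069) and 14 of 49 for the further cluster (1259 of 9611). In the cluster led by Gm32036 15 of 51 members had an unadjusted p under 0.05, beside 1137 of all 9971 genes, and 1 passed (0.883% of all genes). That member was Kcnk2, with a log2 fold change of 0.86 ± 0.168 (SE, edgeR adjusted p = 0.0235). These clusters hold fewer nuclei than the class. Over the 5 clusters the fitted log2 fold change of Kcnc4 ran from -0.38 to -0.11, each value nearer 0 than in the whole class, and that of Kcnj13 from -0.69 to -0.43. That of Kcnh5 ran from -0.33 to 0.98, and the highest value was as large as in the whole class but missed the threshold (edgeR adjusted p = 0.138). That of Kcnmb4 ran from -0.06 to 0.52, where the whole class gave -0.39. Kcng3 passed the filter in 3 clusters, with -0.33, -0.41 and 0.74, the last opposite in sign to the whole class (-0.71). Kcnip1 was below the filter in all 5 clusters. Whole clusters were also left out, again after the data were seen. The cluster of 1970 nuclei and the one led by Gm31698 were chosen by marker genes among their leading genes. The study proposes that neurons with these markers lie in tissue beside the region. Where the nuclei of these clusters lay was not tested here. Without both clusters, 22 of 49 members were called, 6 of them higher in aplCoA, beside 27.2% of all genes. The cluster of 1492 nuclei stayed in this fit. Kcnh5 was called there at a log2 fold change of 0.70, and Kcng1 was not, at -0.0756 (edgeR adjusted p = 0.716). Without the 3 clusters that took over 60% of their nuclei from 1 replicate, among them those led by Ebf1 and Ebf2, 13 members were called, 3 of them higher, beside 18.2% of all genes. The fitted log2 fold change of Kcnip1 was 1.66 there, a description because Kcnip1 passed the filter of the whole class through aplCoA. Kcnmb4 (edgeR adjusted p = 0.0561), Kcna4 (0.0604) and Kcna2 (0.0626) were not called there.

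Measures of nuclear quality moved with the domain as well. The median mitochondrial percentage of glutamatergic nuclei was 0.0182 ± 0.00332% (SD, n = 3) in aplCoA and 0.00948 ± 0.00141% in pplCoA, with no overlap between the domains (two-sided exact permutation test, p = 0.1, which is as low as 3 against 3 can go). The ribosomal percentage did not overlap either, at 0.271 ± 0.0255% in aplCoA and 0.207 ± 0.0120% in pplCoA (exact permutation test, p = 0.1). Of 8 mitochondrial genes tested in these nuclei, 7 were higher in aplCoA by edgeR. Median UMIs per glutamatergic nucleus overlapped, at 12203 ± 2049 and 13157 ± 1382. The part of nuclear quality in the potassium channel calls was not tested.

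In GABAergic nuclei 1 member was higher and 8 were lower in aplCoA, of 43 tested (edgeR, adjusted p under 0.05). The lower genes included Kcnt2, Kcnmb2, Kcnb2 and Kcnc2, and the higher one was the silent subunit Kcns3. Together they were 20.9% of the members tested, where 10.0% of all 8755 genes were called, 4.55% higher and 5.48% lower. Past 10% of nuclei in both domains it was 9 of 42 (21.4%), beside 9.48%. The domains did not overlap for 12 members (27.9%, beside 28.2% of all genes). No member had an adjusted p under 0.01 with a 1.5-fold change by edgeR, where 2.39% of all genes did. An unadjusted p under 0.05 was seen for 13 of 43 members, beside 1969 of all 8755 genes.

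Kcnt2, the sodium-activated channel, had 287, 280 and 315 CPM in aplCoA and 359, 447 and 420 CPM in pplCoA, a log2 fold change of -0.53 ± 0.0858 (SE, edgeR adjusted p = 0.00396). Kcnmb2 had 681, 648 and 688 CPM against 817, 858 and 836 CPM (-0.37 ± 0.0636, edgeR adjusted p = 0.00480). Kcnb2 had 533, 438 and 525 CPM against 629, 751 and 644 CPM (-0.49 ± 0.0877, edgeR adjusted p = 0.00536). In each of these genes every aplCoA replicate was below every pplCoA replicate, and the calls held in all 6 fits that left out a replicate. Kcnc2, the fast-firing subunit, was at 959 ± 52.0 CPM in aplCoA and 1194 ± 96.8 CPM in pplCoA (SD, n = 3, log2 fold change -0.37 ± 0.0758, edgeR adjusted p = 0.00906). Kcnd3 (-0.26 ± 0.0655), Kcnj13 (-0.63 ± 0.178) and Kcnk2 (-0.35 ± 0.101) were also lower, and Kcns3 was higher (0.47 ± 0.135). No overlap between aplCoA and pplCoA replicates was seen in these 8 genes.

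The other calls were less stable. The call of Kcnk2 was lost in each of the 6 fits that left out a replicate and by DESeq2. Kcnd3 and Kcns3 were each called in 1 of these fits, Kcnj13 in 2 and Kcnc2 in 5. The number of calls was 5, 4 and 5 without aplCoA replicates 1, 2 and 3, and 10, 3 and 5 without pplCoA replicates 1, 2 and 3. With only the first library of aplCoA replicate 1 it was 3. No share of all genes stands beside these counts, so they cannot show whether all genes moved alike. The leak channel gene Kcnk9 had 23.5 ± 1.98 CPM in aplCoA and 13.6 ± 4.88 CPM in pplCoA (SD, n = 3) and missed the threshold of the quasi-likelihood test (edgeR adjusted p = 0.0523), but passed by DESeq2 and the likelihood ratio test of edgeR. The shares of GABAergic clusters also differed between the domains, which is a description without a test. The study found no significant difference between domains for its own GABAergic subtypes, which are not these clusters. The cluster led by Vip made up 27.8 ± 2.67% of GABAergic nuclei in aplCoA and 38.3 ± 4.55% in pplCoA. Kcnt2 was at 769 ± 131 CPM there and at 62.3 to 391 CPM in the other 5 clusters. The cluster led by Hs3st5 shifted the other way, at 16.2 ± 2.82% in aplCoA and 7.01 ± 2.99% in pplCoA. It had the lowest mean Kcnmb2 (517 ± 213 CPM), Kcnk2 (14.2 ± 8.52 CPM) and Kcnj13 (17.7 ± 8.84 CPM), with SDs that reached the next cluster. Kcnb2 (350 ± 39.2 CPM) and Kcnc2 (516 ± 148 CPM) were next to lowest there, and Kcns3 (43.5 ± 3.71 CPM) next to highest. Kcnt2 (139 ± 51.5 CPM) and Kcnd3 (460 ± 36.7 CPM) lay between those of other clusters. The median mitochondrial percentage was higher in every aplCoA replicate (0.0284 ± 0.00680% against 0.0163 ± 0.00129%, SD, n = 3, exact permutation test, p = 0.1), as was the ribosomal percentage (0.373 ± 0.0178% against 0.288 ± 0.0202%, exact permutation test, p = 0.1). The part of the cluster shares and of these percentages in the GABAergic calls was not tested.

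Whether the domain difference itself differed between the neuron types was tested with the interaction of type and domain over the 40 members tested in both. Of these, 7 (17.5%) were called by edgeR, where 4.93% of 8431 genes were, and in all 7 the difference was more positive in glutamatergic nuclei (3.71% of all genes). Kcnip1 differed by 2.16 ± 0.400 on the log2 scale (SE), with 2.05 and -0.07 as the log2 fold changes in glutamatergic and GABAergic nuclei. Kcnip1 is 1 of the 7, but in glutamatergic nuclei it passed the filter through aplCoA, so its values are a description. Kcnh5 differed by 1.02 ± 0.174 (0.93 and -0.14) and Kcnk2 by 0.88 ± 0.165 (0.53 and -0.35). Kcnt2 (0.69 ± 0.159), Kcnh1 (0.69 ± 0.156), Kcnb2 (0.60 ± 0.135) and Kcnc2 (0.60 ± 0.127) were the others. The count of these calls changed when single replicates were left out, and the counts that follow have no share of all genes beside them. There were 0 without aplCoA replicate 1 or pplCoA replicate 3 by edgeR, 3 without aplCoA replicate 2, 2 without aplCoA replicate 3 or pplCoA replicate 2, and 15 without pplCoA replicate 1. In the fit with all replicates 19 of the 40 members had an unadjusted p under 0.05, beside 1594 of all 8431 genes.

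**Figure D3:**
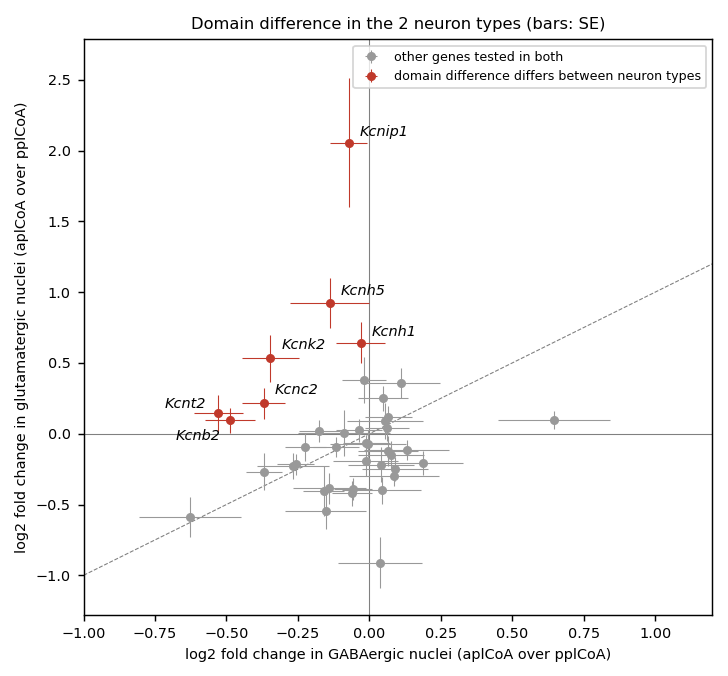
Log2 fold change between domains (aplCoA over pplCoA) in GABAergic nuclei (x axis) and glutamatergic nuclei (y axis) for 40 members, with bars of 1 SE, zero lines and a dashed line of equal change. The 7 members whose domain difference differed between types are red and labelled, and all lie above the dashed line, with Kcnip1 the highest at 2.05. Kcnip1 passed the filter in glutamatergic nuclei through aplCoA, so its point is a description.

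In the other classes few members passed the test between domains. Kcnab1, a beta subunit of the Kcna channels, was lower in aplCoA in OPC, with 112, 109 and 121 CPM against 141, 172 and 131 CPM (log2 fold change -0.41 ± 0.106, SE, edgeR adjusted p = 0.0265). Kcnab1 was also lower in MOL, with 381, 433 and 441 CPM against 524, 658 and 554 CPM (-0.49 ± 0.124, edgeR adjusted p = 0.0416). The domains did not overlap in either class. It was the 1 member called of 33 in OPC, where 6.67% of genes were called, and the 1 of 13 in MOL, where 2.35% were. The call in OPC was lost without aplCoA replicate 1, aplCoA replicate 2 or pplCoA replicate 2. The call in MOL was lost without aplCoA replicate 1 or 2 or pplCoA replicate 2 or 3. By edgeR 0 members were called in astrocytes (0.617% of genes called), NFOL (0%), microglia (0%), Slc6a13-led nuclei (0.0174%) and ABC (0%). Members with an unadjusted p under 0.05 were 5 of 19 in astrocytes (787 of all 5023 genes) and 3 of 20 in NFOL (707 of 7269). They were 0 of 9 in microglia (244 of 5213), 2 of 11 in Slc6a13-led nuclei (467 of 5742) and 1 of 11 in ABC (449 of 5931). DESeq2 called Kcnd3, Kcnip3 and Kcnma1 in astrocytes, Kcnq5 in ABC and 0 members in NFOL, microglia and Slc6a13-led nuclei, and the likelihood ratio test of edgeR called the same genes in these 5 classes. These classes hold fewer nuclei or fewer UMIs per nucleus than the neurons, with 311 nuclei in NFOL, and a count of 0 does not show that the domains were alike.

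Genes outside the family that act with potassium channels were followed from a list of 24 partners and 12 potassium transport genes. In glutamatergic nuclei 17 partners were tested, of which 2 (11.8%) were higher and 0 lower in aplCoA by edgeR, a share near the 10.2% of all genes that were higher. These were Cntnap2 (1959 ± 215 and 1283 ± 140 CPM, SD, n = 3, log2 fold change 0.53 ± 0.112) and Cntnap1 (0.35 ± 0.106), which hold Kcna channels beside the node of Ranvier. Of 10 transport genes tested 2 (20.0%) were higher, the sodium pump subunits Atp1b1 (0.44 ± 0.0840) and Atp1b2 (0.73 ± 0.123). In GABAergic nuclei 0 of 18 partners and 1 of 10 transport genes, Atp1b1 again (0.45 ± 0.0959), were called by edgeR, where 4.55% of all genes were higher.

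Glutamatergic nuclei were then split by transporter, without use of the potassium channel genes, into nuclei with Slc17a6 only and nuclei with Slc17a7 only, compared within each replicate. Of 50 members, 33 (66.0%) were called by edgeR, 10 higher and 23 lower in Slc17a6-only nuclei. Of all 9824 genes 48.5% were called, 26.2% higher and 22.3% lower. Of the 33, 9 were seen in under 10% of nuclei on the side where they were lower and so passed the filter through the other side. Among the genes past 10% on both sides 24 of 40 members were called, beside 46.1% of all 8632 genes. The median log2 fold change of the members was -0.17, against 0.03 over all genes. The pplCoA replicates gave 208, 39 and 26 Slc17a6-only nuclei, and in the aplCoA replicates alone, a comparison also added after the data were seen, 36 of 51 members (70.6%) were called, beside 50.8% of all 9827 genes, and 26 of 40 (65.0%) among the genes past 10% on both sides, beside 48.8%. Median UMIs per nucleus ran from 9307 to 12418 in Slc17a6-only and from 11574 to 15943 in Slc17a7-only nuclei, and the part of depth was not tested.

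Kcnip1 was seen in 31.5% of Slc17a6-only and 5.03% of Slc17a7-only nuclei. Its fitted log2 fold change was 3.11 ± 0.254, given as a description because it passed the filter through the Slc17a6-only side, and it was higher in 6 of 6 replicates. Kcnab1 (1.61 ± 0.192) had a median of 355 CPM over replicates in Slc17a6-only and 97.8 CPM in Slc17a7-only nuclei. Kcnab1, Kcnn2 (0.76 ± 0.114) and Kcnd2 (0.47 ± 0.0730) were higher in 6 of 6 replicates as well. Of the lower genes, Kcnv1 had a log2 fold change of -2.16 ± 0.125, with a median of 9.98 CPM in Slc17a6-only and 37.2 CPM in Slc17a7-only nuclei. Kcnv1, Kcnmb2 (-2.33 ± 0.195), Kcnmb4 (-1.14 ± 0.0958) and Kcnab2 (-0.74 ± 0.0633) were lower in 6 of 6 replicates. Kcnv1 (9.06% of Slc17a6-only nuclei), Kcnmb2 (9.67%), Kcng3 (2.48%) and Kcnc4 (9.40%) passed the filter through the Slc17a7-only side, and their values too are a description. The split and the domain comparison use the same nuclei, so their values are only set side by side. Of the genes lower in aplCoA, Kcng3 (-2.06 ± 0.212), Kcnmb4, Kcnc4 (-0.97 ± 0.116), Kcnma1 (-0.68 ± 0.0838), Kcnk10 (-0.54 ± 0.0713), Kcnj6 (-0.52 ± 0.0648), Kcnj9 (-0.51 ± 0.0678) and Kcna4 (-0.30 ± 0.115) were lower in Slc17a6-only nuclei. Kcnn3 (0.38 ± 0.0961) was higher, and Kcnk13 (0.31 ± 0.204), Kcnj13 (-0.05 ± 0.0874) and Kcng1 (-0.03 ± 0.132) missed the threshold. Of the genes higher in aplCoA, Kcnip1 and Kcnh1 (0.40 ± 0.0863) were higher in Slc17a6-only nuclei, and Kcnh5 (-0.13 ± 0.114) and Kcna2 (0.24 ± 0.0954) missed the threshold.

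**Figure D4:**
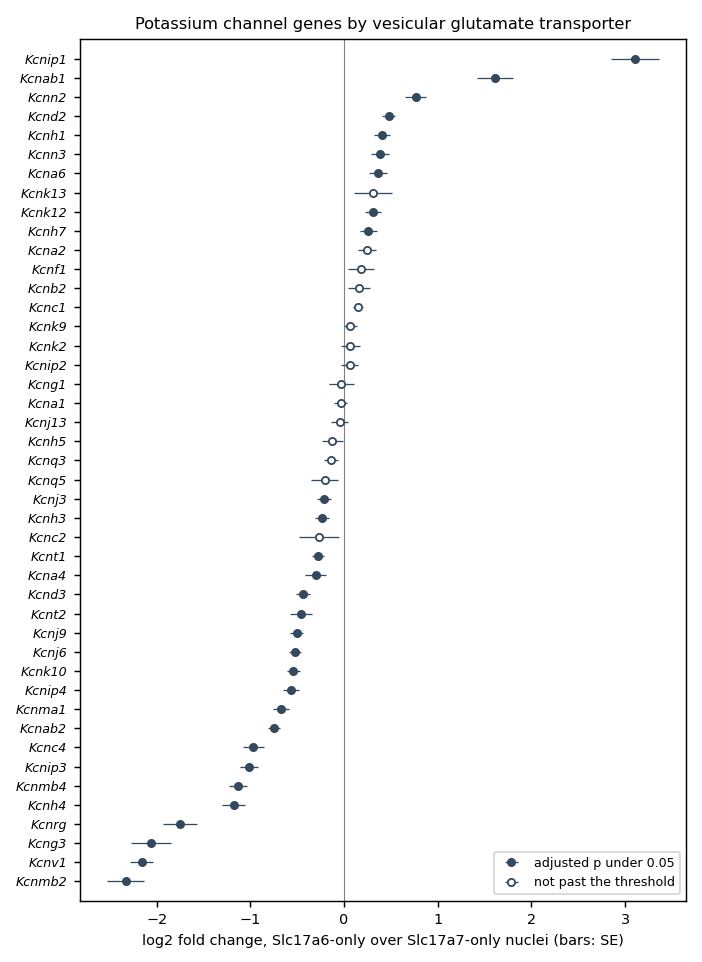
Log2 fold change of 44 of the 50 potassium channel genes tested between Slc17a6-only and Slc17a7-only glutamatergic nuclei, compared within replicates, with bars of 1 SE. Filled points passed the threshold, and they run from -2.33 for Kcnmb2 to 3.11 for Kcnip1. Both of these genes passed the filter through the side where they were higher, so their points are a description. Among genes past 10% of nuclei on both sides, filled points run from -1.14 for Kcnmb4 to 1.61 for Kcnab1.

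GABAergic nuclei were split by the marker gene of which a nucleus had at least 2 UMIs and more than of the other markers. This gave 649 nuclei with Sst (somatostatin), 629 with Vip (vasoactive intestinal peptide), 450 with Lamp5, 814 with Cnr1, 72 with Meis2 and 31 with Pvalb, and 2444 with none. Each set was compared with the other GABAergic nuclei of the same replicates. The members called by edgeR were 31 of 43 for Sst (72.1%, beside 23.6% of all genes), 33 of 43 for Vip (76.7%, beside 33.3%) and 30 of 44 for Lamp5 (68.2%, beside 30.1%). They were 24 of 43 for Cnr1 (55.8%, beside 20.6%) and 19 of 47 for Meis2 over 4 replicates (40.4%, beside 7.74%). These counts hold 6, 11, 4, 3 and 4 members seen in under 10% of nuclei on one side, which passed the filter through the side where they were higher. Among the genes past 10% on both sides, the members called were 25 of 36 for Sst (69.4%, beside 22.0% of all genes), 22 of 32 for Vip (68.8%, beside 32.9%) and 26 of 40 for Lamp5 (65.0%, beside 27.1%). They were 21 of 40 for Cnr1 (52.5%, beside 19.1%) and 15 of 40 for Meis2 (37.5%, beside 7.04%). The members were not matched with other genes of like level. The sets differed in depth, with median UMIs from 5961 for Vip to 10040 for Sst, and the part of depth was not tested.

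In Sst nuclei Kcnq5, an M-current subunit, had 14.8 CPM in its lowest, 82.3 CPM in its median and 110 CPM in its highest replicate, against 1177 ± 86.2 CPM (SD, n = 6) in the other GABAergic nuclei. The log2 fold change of Kcnq5 was -4.08 ± 0.241 (SE, edgeR adjusted p = 4.88e-09). Kcnt2 (-1.43 ± 0.0909), Kcnn2 (-1.15 ± 0.0675) and Kcnd3 (-1.04 ± 0.0596) were lower as well. Kcnh5 (1.44 ± 0.209), Kcnk10 (1.36 ± 0.143), Kcnb2 (0.77 ± 0.0636) and Kcnq3 (0.54 ± 0.0595) were higher. Each of these 8 genes kept its direction in 6 of 6 replicates. Kcnh5 and Kcnk10 were seen in under 10% of the other nuclei and passed the filter through the Sst nuclei, so their values are a description.

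Vip nuclei were compared with the other GABAergic nuclei in the same way. Kcnt2 was at 1323 ± 136 CPM (SD, n = 6) against 251 ± 58.0 CPM, a log2 fold change of 2.52 ± 0.0957 (SE, edgeR adjusted p = 1.44e-17). Kcnip4 (1.70 ± 0.0724), Kcnb2 (1.35 ± 0.0798) and Kcnip1 (0.97 ± 0.0676) were higher, each in 6 of 6 replicates. Kcnh7 was at 472 ± 71.9 CPM against 1185 ± 77.4 CPM, a log2 fold change of -1.22 ± 0.0796. Kcnh7, Kcnd2 (-0.76 ± 0.0680), Kcnma1 (-0.77 ± 0.0702) and Kcnc2 (-0.71 ± 0.0662) were lower in all 6 replicates.

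In Lamp5 nuclei the fast-firing subunit Kcnc2 was at 341 ± 77.8 CPM (SD, n = 6) against 1149 ± 146 CPM, a log2 fold change of -1.80 ± 0.0751 (SE, edgeR adjusted p = 4.99e-17). Kcnh5 was at 1.61 ± 1.26 CPM against 31.6 ± 4.42 CPM (-4.01 ± 0.293), and Kcnq3 (-1.12 ± 0.0800) and Kcnb2 (-0.81 ± 0.0785) were lower. Kcnk13 was at 64.0 ± 18.8 CPM against 19.8 ± 3.86 CPM (1.54 ± 0.165), and Kcnh7 (0.87 ± 0.0613), Kcnn2 (0.87 ± 0.0616) and Kcnq5 (0.65 ± 0.0638) were higher. Each of these held in 6 of 6 replicates, and Kcnh5 was seen in 1.56% of Lamp5 nuclei and passed the filter through the other nuclei, so its value is a description.

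Cnr1 nuclei, defined by the cannabinoid receptor gene, had Kcnq5 at 2123 ± 273 CPM (SD, n = 6) against 772 ± 36.4 CPM, a log2 fold change of 1.47 ± 0.0579 (SE, edgeR adjusted p = 7.85e-13). Kcnd3 (0.92 ± 0.0589) and Kcnn2 (0.56 ± 0.0600) were higher as well. Kcnma1 (-0.69 ± 0.0557), Kcna1 (-0.79 ± 0.0923), Kcnip2 (-1.60 ± 0.189) and Kcnk12 (-1.59 ± 0.194) were lower, where Kcnip2 (6.02% of Cnr1 nuclei) and Kcnk12 (5.41%) passed the filter through the other nuclei and are given as a description.

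Of the 72 Meis2 nuclei, those in the 4 replicates with at least 10 of them were compared. These were aplCoA replicates 1 to 3 (24, 10 and 14 nuclei) and pplCoA replicate 1 (18 nuclei). Kcnh5 had 361, 444 and 929 CPM in the lowest, median and highest of these replicates against 19.0 ± 4.02 CPM (SD, n = 4) in the other GABAergic nuclei, a log2 fold change of 4.79 ± 0.231 (SE, edgeR adjusted p = 4.09e-10). Kcnd2 (1.78 ± 0.168) and Kcnip4 (1.39 ± 0.153) were higher as well. Kcnh8, which was highest in OPC among the classes, was at 103 ± 53.5 CPM against 5.03 ± 1.84 CPM, given as a description with no test because it was seen in 31.8% of Meis2 and 2.82% of the other nuclei and passed the filter through the Meis2 nuclei. Kcnip1 (-1.21 ± 0.175), Kcnc2 (-1.61 ± 0.285), Kcnmb2 (-2.07 ± 0.376) and Kcnt2 (-1.21 ± 0.233) were lower. Each kept its direction in 4 of 4 replicates. The 31 Pvalb nuclei, which reached 10 nuclei in 2 replicates, were not tested.

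**Figure D5:**
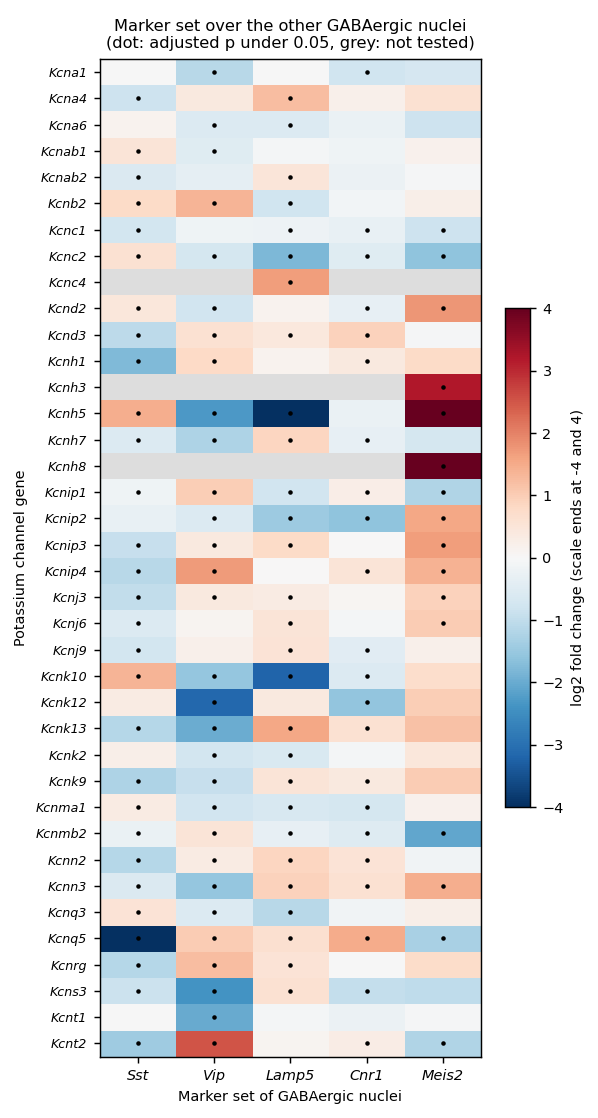
Log2 fold change of 38 potassium channel genes that passed in at least 1 set (rows) between each marker set of GABAergic nuclei (columns) and the other GABAergic nuclei of the same replicates, in red where higher and blue where lower, with a scale that ends at -4 and 4. Black dots mark genes that passed the test and grey cells genes not tested. Kcnq5 in Sst, Kcnh5 in Lamp5 and Kcnh5 and Kcnh8 in Meis2 nuclei reach the ends of the scale.

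The clusters of GABAergic nuclei, made without the members, held further spread, given as a description. Kcnc2 was at 1829 ± 111 CPM (SD, n = 6) in the cluster led by Moxd1 and at 268 ± 12.3 CPM in the one led by Kit. Kcnmb2 was at 1889 ± 177 CPM and Kcnc1 at 600 ± 41.1 CPM in the 281 nuclei led by Mctp2. Kcns3 was at 198 ± 68.4 CPM in the 171 nuclei led by Hcrtr2 and at 4.33 ± 2.71 CPM in the cluster led by Vip.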

How the data were processed

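Nuclei of the anterior and posterior domains were profiled by droplet single-nucleus RNA sequencing. The authors deposited raw UMI counts per gene and barcode for each library, which the submitters' processing notes credit to Cell Ranger 5.0.0 and the mm10 build. Intronic reads were included, so long genes collect more UMIs. No normalized values were used.

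From these counts, barcodes with at least 1000 genes were kept, barcodes beyond 5 median absolute deviations in UMIs or 5 interquartile ranges in mitochondrial or ribosomal percentage were removed, and the highest Scrublet doublet scores were removed at 1% per 1000 nuclei. Nuclei were clustered with scanpy 1.11.5 (Pearson residuals, theta 100, 5000 variable genes without the potassium channel genes, 50 principal components, 15 neighbours, Leiden resolution 1) and named by 5 markers for each of 12 classes. The study's own cluster names were not used, so classes may differ from them.

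UMIs were summed per class and replicate, and domains were compared with edgeR 4.0.16 (quasi-likelihood test, R 4.3.3) on genes with a UMI in at least 10% of nuclei of either domain, with adjustment over all genes tested. The SE of a log2 fold change is its size divided by the square root of F. The transporter and marker splits used the replicate as a block, since both sides came from the same pools. DESeq2 1.42.0, the likelihood ratio test, other filters and scalings, other nuclei and the omission of each replicate were alternatives. The programs were tested on simulated data, where 200 genes were given a log2 change of 1. Of these, 9% were recovered in NFOL and 97.5 to 100% in the other comparisons simulated. The simulated transporter split held 13120 genes, kept by summed UMIs and not by the share of nuclei. The potassium channel genes, the gene lists and the tests were chosen with earlier results of these data known. Named genes were those called between domains in neurons, the gene with the largest class ratio in each subfamily, a set list of 27 well-studied channels, up to 4 called genes per direction in each split, and the genes at the edge of the 5% rule. Kcna6, Kcnip2, Kcnh3, Kcnh4, Kcnj2, Kcnj3, Kcnk6, Kcnk9 and Kcnk12 were added after their values were seen, as were the cluster levels. A few genes are not reported here, though they stay in all fits and counts. Figures name the genes of the text. Gene spans came from the reference annotation of the same build.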

Additional observations from a re-analysis of the deposited data

Results flagged for a closer look

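The domain difference of 7 members differed between the neuron types by a test of the difference itself (edgeR, interaction of type and domain). On the log2 scale, glutamatergic minus GABAergic, it was 2.16 for Kcnip1, 1.02 for Kcnh5, 0.88 for Kcnk2, 0.69 for Kcnt2, 0.69 for Kcnh1, 0.60 for Kcnb2 and 0.60 for Kcnc2. Kcnip1, Kcnh5 and Kcnh1 were called between domains in glutamatergic nuclei, and Kcnt2, Kcnb2, Kcnc2 and Kcnk2 in GABAergic nuclei. The values of Kcnip1 are a description, because in glutamatergic nuclei it passed the filter through aplCoA.

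In the class where each kept member was highest, 1 replicate lay far from the other 5 for 4 of 67 genes, where chance flags about 1 in 20 groups. These were the highest replicates of Kcnip1 in GABAergic nuclei, at 608 CPM, of Kcnj12 in NFOL, at 40.1 CPM, of Kcnq3 in NFOL, at 1110 CPM, and of Kcnd1 in microglia, at 34.2 CPM. The NFOL class had 311 nuclei over all replicates.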

How the results depend on the processing

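The domain calls in glutamatergic nuclei (16 members) ran from 4 to 22 when 1 replicate was left out, and were 22 without the cluster of 1970 nuclei and the one led by Gm31698 and 13 without the clusters mostly of 1 replicate. They were 8 in nuclei with Slc17a7 only, 3 with an adjusted p under 0.01 and a 1.5-fold change, and 0, 0, 0, 0 and 1 within the 5 clusters, alternatives with fewer nuclei or a higher threshold. The domain calls in GABAergic nuclei (9) ran from 3 to 10 when 1 replicate was left out, and were 3 with the first library of aplCoA replicate 1 alone, 3 in nuclei outside the marker sets and 0 at the higher threshold. The calls in the other classes (2) were 7 by the likelihood ratio test, 6 by DESeq2 and 1 to 8 when 1 replicate was left out. The interaction calls (7) ran from 0 to 15 when 1 replicate was left out. Where an alternative's own construction does not show the cause, it was not tested. Counts given here without a share of all genes cannot show whether the members moved apart from all genes. Same-numbered replicates of the domains correlated at 0.088, -0.068 and 0.122 in glutamatergic nuclei, where other pairs ran from -0.214 to 0.179. In GABAergic nuclei same-numbered replicates correlated at 0.0099, -0.152 and -0.0052. The values were centred within each domain over 3 replicates, so they cannot show whether the replicate numbers pair the samples. With a replicate block the counts were 15 in glutamatergic, 6 in GABAergic and 8 in the other classes.

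The counts for the transporter split, the marker sets and the kept genes stayed within 1.5 times the reported count under the alternatives run, except with an adjusted p under 0.01 and a 1.5-fold change. That threshold, added after the data were seen for all but the domain calls of the neurons, gave 16 in place of 33 for the transporter split, 20 of 31 for Sst, 18 of 30 for Lamp5 and 10 of 24 for Cnr1, and 0 for the interaction and for the other classes. These counts have no share of all genes at that threshold beside them. Of 1194 values of single genes under the alternatives other than the single clusters, 0 reversed, 170 were no longer past the threshold and 13 newly passed it. Of 78 values of single genes within the 5 glutamatergic clusters, 62 were no longer past the threshold with the same direction, 1 newly passed it and 12 turned in direction, each with an edgeR adjusted p over 0.05. These 12 log2 fold changes were 0.74 for Kcng3, 0.52 for Kcnmb4 and 0.0232 for Kcna4 in the cluster led by Gm32036, -0.33 for Kcnh5, 0.15 for Kcnj9, 0.0794 for Kcna4 and 0.0204 for Kcng1 in the one led by Matn2, 0.0124 for Kcnmb4 and -0.0634 for Kcnk2 in the one led by Fstl5, -0.0363 for Kcnh1 in the one led by Smoc2, and 0.00229 for Kcnj6 and 6.63e-05 for Kcnmb4 in the other cluster. Genes near 10 CPM and classes of few nuclei give the least certain values, and replicates 2 and 3 of pplCoA had 39 and 26 Slc17a6-only nuclei.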
